A study of Mus musculus with 17 samples.

Results

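Nfkbiz, Serpinb3a, Ptgs2 and Btla are 4 genes of immune and inflammatory function out of the 2615 genes listed in a table of read counts from mouse oocytes. They were selected by name, because their counts were higher in oocytes without EHMT2, so the difference between the groups is what chose them and is given here as a description without a test. EHMT2, also called G9a, is a histone methyltransferase that places dimethylation on lysine 9 of histone H3, a mark of silent chromatin. All 4 genes passed the filter on low counts, Ptgs2 and Btla only through their libraries without EHMT2.

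The oocytes came from 8-week-old C57BL/6J females. The labels give both groups as metaphase II (MII) oocytes and the study's text as superovulated oocytes. The study also describes oocytes of this knockout as stopping mostly in metaphase I, so a difference in meiotic stage cannot be told apart from the genotype in these libraries. The control group held 3 libraries from Ehmt2 flox/flox females, with replicate numbers 1, 2 and 6, and the Ehmt2GKO group held 3 libraries from Ehmt2 flox/flox females with Gdf9-Cre, with replicate numbers 3, 4 and 5. Both groups therefore carried the floxed allele, and Cre was present only in Ehmt2GKO, so an effect of Cre itself cannot be told apart from the loss of exons 4 to 20 of Ehmt2. The Gdf9 promoter drives Cre in oocytes from primordial follicles onward, and the other cells of the ovary keep the gene. The labels do not say whether the libraries came from separate females, so the spread between libraries may be technical. Ehmt2 itself was not analysed here, and its level was not used to check the labels. The libraries held 4060653 to 4258350 counts over the listed genes. Of 30 oocyte markers, 9 were listed, with summed normalized counts of 117400 to 127300 in control and 143200 to 153200 in Ehmt2GKO libraries. The sums do not stand for each marker, as 5 of the 9 had a higher and 4 a lower fitted level. By the rule for calls given below, 0 were called higher and 1 (Zp3) lower. These are bulk libraries of polyadenylated RNA amplified from few cells, in which a change in the number of cells of a type and a change of RNA per cell cannot be told apart.

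The 4 genes have different roles. Nfkbiz encodes I-kappa-B-zeta, a nuclear protein of the I-kappa-B family that acts with NF-kB on a second wave of inflammatory genes. Ptgs2 encodes COX-2, the inducible enzyme that starts prostaglandin synthesis, and is known in the ovary from the cumulus cells around the oocyte at ovulation. Btla is an inhibitory receptor of lymphocytes that binds TNFRSF14. Serpinb3a is a clade B serpin, an intracellular protease inhibitor of squamous epithelia. NF-kB factors wait in the cytoplasm bound to I-kappa-B proteins, and inflammatory signals free them to enter the nucleus.

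On GRCm38, Nfkbiz (ENSMUSG00000035356) lies at chr16:55811375-55838899 on the minus strand and Btla (ENSMUSG00000052013) at chr16:45224315-45252895 on the plus strand, 10.6 Mb apart. Serpinb3a (ENSMUSG00000044594) lies at chr1:107045587-107052303 on the minus strand and Ptgs2 (ENSMUSG00000032487) at chr1:150100031-150108227 on the plus strand, 43.0 Mb apart. In GENCODE vM21 the longest transcript has 14 exons for Nfkbiz, 7 for Serpinb3a, 10 for Ptgs2 and 6 for Btla, and 0 annotated genes overlap any of the 4.

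The 250 bases before the RefSeq start of Serpinb3a, Ptgs2 and Btla are shown to set the promoter of a gene expressed in control oocytes (Serpinb3a) beside those of the genes near silence there. The table of promoters held these 3 of the 4 genes. Capitals mark matches on either strand. The C/EBP motif was searched as TTNNGNAA. The TATA box was searched as TATAAA. The letters of the GC box were GGGCGG, and a sequence in lower case throughout held none of these 3 motifs. Positions are on GRCm38.p6, at chr1:107052304-107052553 on the minus strand for Serpinb3a, chr1:150099781-150100030 on the plus strand for Ptgs2 and chr16:45224087-45224336 on the plus strand for Btla. The last 22 bases of the Btla window lie inside the gene as the deposited table places it.
Serpinb3a: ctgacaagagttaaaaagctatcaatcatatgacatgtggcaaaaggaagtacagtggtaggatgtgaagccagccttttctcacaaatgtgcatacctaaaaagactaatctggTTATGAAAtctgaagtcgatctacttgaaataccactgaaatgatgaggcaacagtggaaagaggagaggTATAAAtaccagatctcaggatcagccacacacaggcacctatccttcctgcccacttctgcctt
Ptgs2: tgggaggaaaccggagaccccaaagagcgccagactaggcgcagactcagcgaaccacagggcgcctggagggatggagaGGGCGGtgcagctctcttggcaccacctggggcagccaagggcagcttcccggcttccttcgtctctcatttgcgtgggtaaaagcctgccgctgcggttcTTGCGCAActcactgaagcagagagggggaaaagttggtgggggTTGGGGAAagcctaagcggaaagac
Btla: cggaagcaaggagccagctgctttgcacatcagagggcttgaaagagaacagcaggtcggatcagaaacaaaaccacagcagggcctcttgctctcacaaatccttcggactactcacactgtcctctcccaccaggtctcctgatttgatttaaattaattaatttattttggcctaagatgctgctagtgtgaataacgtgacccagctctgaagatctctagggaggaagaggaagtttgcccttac

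The 3 windows shared few features. Serpinb3a held a match to the TATA box letters 65 to 60 bases before its start, and a C/EBP match 135 to 128 bases before it. The TATA box letters were found in 12.4% of 32851 windows of the same length. Whether any of these matches acts in oocytes was not tested. Ptgs2 held 2 C/EBP matches, a motif found in 36.8% of all windows, and a GC box, found in 32.7%. The NF-kB consensus (in 3.9% of windows), the cAMP response element TGACGTCA (1.55%) and its core TGACG (17.8%), TGANTCA of AP-1 (6.75%) and the E-box CACGTG (6.02%) had no match in these 3 windows. CpG dinucleotides numbered 13 in Ptgs2, 4 in Btla and 1 in Serpinb3a, against a median of 6 over all windows. The GC content was 61.6% in Ptgs2, 47.2% in Btla and 42.0% in Serpinb3a, against a median of 52.4%.

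Nfkbiz and Serpinb3a were already expressed in control oocytes. Counts here are normalized to the library size by the trimmed mean of M-values (TMM), which leaves them near the read counts. Nfkbiz had 708, 813 and 601 normalized counts in control libraries 1, 2 and 6, and 3521, 3608 and 4379 in Ehmt2GKO libraries 3, 4 and 5. Every Ehmt2GKO library lay above every control library, and the lowest was 4.33 times the highest control. The means were 707 ± 106 (SD, n = 3) and 3836 ± 472 (SD, n = 3), a log2 fold change of 2.44 ± 0.13 (SE), or 5.42-fold. Serpinb3a had 1459, 1380 and 1619 normalized counts in control and 6017, 6875 and 5497 in Ehmt2GKO. These groups did not overlap either, with a lowest Ehmt2GKO library 3.39 times the highest control. Separate groups are not particular to these genes, since the table was selected on this contrast. Listed genes with a small difference, such as Il1r1 (log2 fold change 0.33), had separate groups too. The share of all listed genes with separate groups is not given here. Serpinb3a rose from 1486 ± 122 to 6130 ± 696 (SD, n = 3 each), a log2 fold change of 2.04 ± 0.11 (SE), or 4.12-fold.

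Ptgs2 and Btla were close to silent in control oocytes. Ptgs2 had 6, 10 and 14 read counts in control libraries 1, 2 and 6, and 107, 74 and 59 in Ehmt2GKO libraries 3, 4 and 5. Its control libraries were all below its Ehmt2GKO libraries, with means of 9.97 ± 3.77 and 79.6 ± 22.9 normalized counts (SD, n = 3 each) and a log2 fold change of 2.98 ± 0.38 (SE), or 7.87-fold. Btla had 8, 13 and 23 read counts in control and 296, 376 and 300 in Ehmt2GKO. Its lowest Ehmt2GKO library was 12.8 times its highest control, the widest gap among the 4 genes. Means for Btla were 14.6 ± 7.28 and 324 ± 52.5 normalized counts (SD, n = 3 each), with a log2 fold change of 4.45 ± 0.28 (SE), or 21.9-fold.

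**Figure D1:**
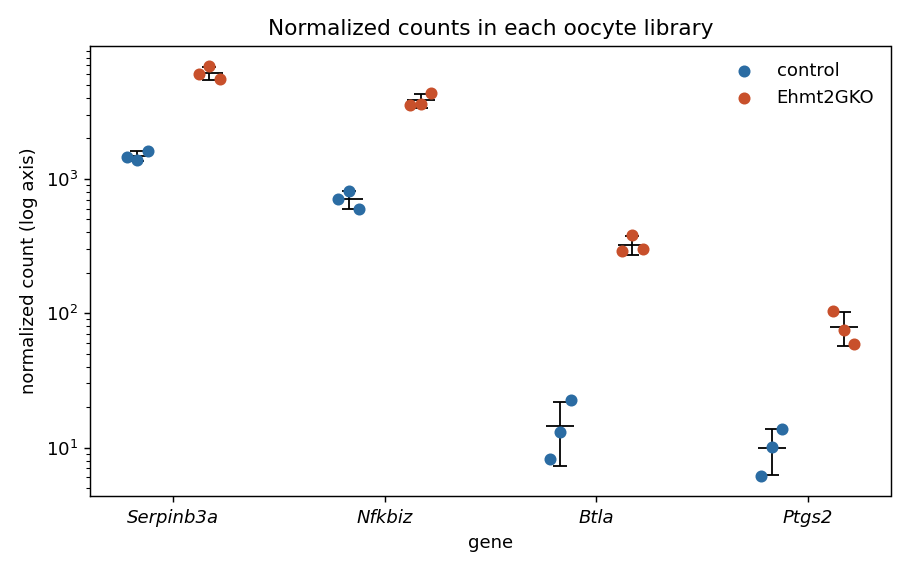
Normalized counts on a log axis for each gene in 3 control (blue) and 3 Ehmt2GKO (orange) libraries, with black bars for the mean and SD. Control values of Serpinb3a and Nfkbiz lie between 601 and 1619 and those of Btla and Ptgs2 between 6.16 and 22.5. In each gene the groups are separate, as they are in listed genes with a small difference such as Il1r1.

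The order of the folds ran against the order of control levels, apart from Ptgs2 and Btla. In the pair near silence the mean log2 fold change was 3.71, and in the expressed pair 2.24, a gap of 1.47. Such a gap is not particular to these genes. Tested genes with a higher fitted level had a median of 3.11 below 10 control counts and 1.42 from 10 to 100. From 100 to 1000 the median was 0.65, and from 1000 up 0.475. Ptgs2 and Btla also passed the filter only through their Ehmt2GKO libraries. In normalized counts gained, the order of the 4 genes was the opposite. Serpinb3a gained 4644 and Nfkbiz 3129, while Btla gained 309 and Ptgs2 69.6, so the expressed pair held 95.4% of the counts gained by the 4 genes.

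The spread between libraries was larger, relative to the mean, in the pair near silence. The coefficient of variation in control was 49.9% for Btla and 37.8% for Ptgs2, against 15.0% for Nfkbiz and 8.22% for Serpinb3a. Ptgs2 rested on 30 reads over the 3 control libraries, and its SD of 3.77 was 1.19 times that of Poisson counting. Btla rested on 44 control reads. Both genes were lowest in control 1 and highest in control 6. In Ehmt2GKO libraries the 4 genes shared no order, with Ptgs2 highest in library 3, Serpinb3a and Btla in library 4 and Nfkbiz in library 5.

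Levels of different genes were compared as normalized counts per kilobase of annotated exon. In Ehmt2GKO oocytes the order was Serpinb3a (3760 ± 427 SD), Nfkbiz (765 ± 94.1), Btla (95.4 ± 15.5) and Ptgs2 (17.4 ± 5.01). Control oocytes gave 911 ± 74.9 for Serpinb3a, 141 ± 21.1 for Nfkbiz, 4.30 ± 2.14 for Btla and 2.18 ± 0.82 for Ptgs2. The control levels of Btla and Ptgs2, neighbours in this order, did not differ beyond their spread. The Ehmt2GKO levels of both stayed below the control level of Nfkbiz. Serpinb3a has relatives of similar sequence, with its longest transcript 92.8% identical to Serpinb3b and 91.8% to Serpinb3c over nearly its full length. No other gene reached 95% identity over 50% of the transcript for any of the 4 genes, and how the counting treated reads shared among the Serpinb3 genes is not given in the sources used here.

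The listed genes give the setting of these values. Every listed gene had been chosen by the authors at an adjusted p below 0.05 for the same contrast, so a call only ranks genes already selected. A gene was called where its level differed by more than 1 on the log2 scale and the adjusted p of edgeR's quasi-likelihood test was below 0.01. By this rule 471 of 2516 tested genes (18.7%) were called higher and 426 (16.9%) lower. All 4 genes were called higher, which the selection fixed. Among the 1244 genes with a higher fitted level, Btla ranked 45, Ptgs2 97, Nfkbiz 149 and Serpinb3a 188 by log2 fold change. By counts gained the ranks were 30 for Serpinb3a, 42 for Nfkbiz, 451 for Btla and 942 for Ptgs2.

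The folds were then set beside those of genes in the same broad class of control level. Of the 328 higher genes with at least 1000 normalized counts in control, 0 exceeded the log2 fold change of Serpinb3a, and their median was 0.47. Nfkbiz was exceeded by 2 of the 472 higher genes between 100 and 1000 counts, whose median was 0.65. Btla was exceeded by 3 of 298 between 10 and 100 counts (median 1.42), and Ptgs2 by 81 of 146 below 10 counts (median 3.11). The control means of Ptgs2 (9.97) and Btla (14.6) lie close together on either side of the edge at 10. The contrast between their 2 ranks therefore depends on that edge and is no difference between the genes. In the lowest class every tested gene was higher, as the filter on low counts kept genes with so few control counts only through their Ehmt2GKO libraries. Btla, with 8 read counts in control 1, also passed only through its Ehmt2GKO libraries. The 4 genes were chosen for their rise, so these ranks are a description of that choice.

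**Figure D2:**
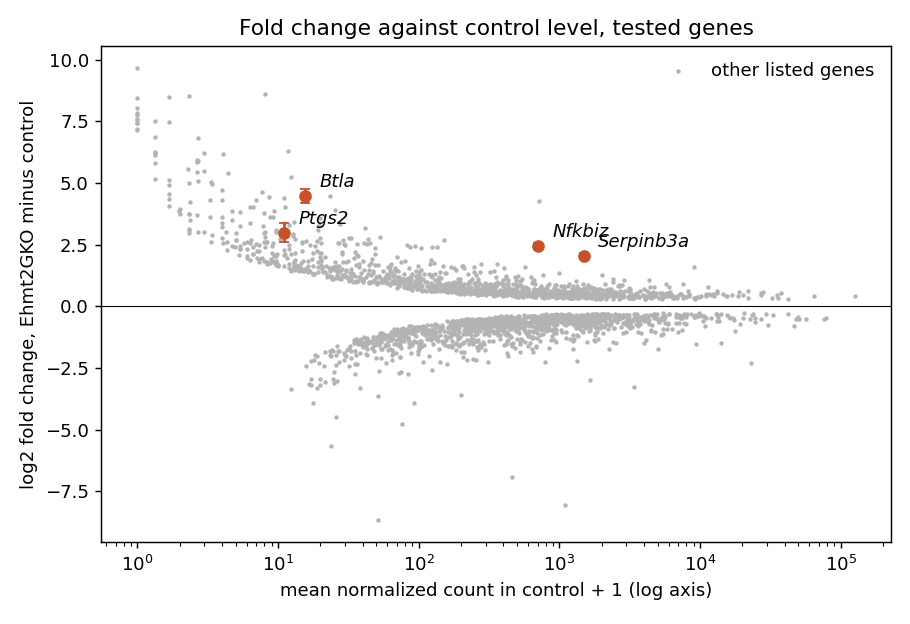
Log2 fold change of each tested gene against its mean normalized count in control plus 1, on a log axis, with the 4 genes in orange and bars for the SE. Serpinb3a (2.04) and Nfkbiz (2.44) stand at the upper edge of the genes with their control level, while Ptgs2 (2.98) lies within the spread of genes with few control counts.

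Among genes of the NF-kB pathway (subunits, I-kappa-B proteins, and upstream receptors, kinases and ubiquitin ligases), 7 of 61 genes were listed. Nfkbiz was called higher, Il18r1, a receptor chain for interleukin 18, was called lower (log2 fold change -1.23 ± 0.26 SE), and the other 5 were not called. Il18r1 had 131, 128 and 232 read counts in control, and without control 6 its log2 fold change was -0.92 and the call was lost. Rel, an NF-kB subunit, had a log2 fold change of 0.51, Nfkbia, the classical I-kappa-B, 0.37, and Birc3, a ubiquitin ligase of the pathway, 0.47. Il1r1, the interleukin 1 receptor, had 0.33 and Ripk2, a kinase that relays signals from NOD receptors, -0.56. Of the 7 listed genes 5 had a higher and 2 a lower fitted level, beside 1244 higher among all 2516 tested genes. The median over the 6 genes beside Nfkbiz was 0.35, and over all tested genes -0.32. No higher gene of this selected table was below 0.28. A median here therefore mainly follows which sign is more common, and the contrast of these 2 medians is no measure of a shift.

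Of 38 inflammatory genes known as targets of NF-kB or Nfkbiz, 5 were listed and 2 were called higher. Il12b, the shared subunit of interleukins 12 and 23, had 5, 1 and 1 read counts in control and 75, 70 and 87 in Ehmt2GKO (log2 fold change 4.97 ± 0.48 SE). Ccl2, a chemokine for monocytes, had 15, 6 and 14 in control and 63, 120 and 70 in Ehmt2GKO (2.84 ± 0.40). Both had few control counts, with means of 2.37 normalized counts for Il12b and 11.7 for Ccl2, against 9.97 for Ptgs2 and 14.6 for Btla. Il12b and Ccl2 passed the filter only through their Ehmt2GKO libraries, and all 146 tested genes below 10 control counts were called higher. Vcam1, an adhesion molecule, was called lower (-3.33 ± 0.73), with 28, 13 and 12 counts in control and 4, 0 and 1 in Ehmt2GKO. Il23a (0.58) and Csf1 (0.50) were not called.

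Of 39 genes of prostaglandin synthesis, transport and reception, Ptgs2 and Ptges3, a co-chaperone with prostaglandin E synthase activity, were listed. Ptges3 had a log2 fold change of 0.49 and was not called. For Btla, 3 of 41 inhibitory receptors and ligands were listed. Cd47, which signals to phagocytes through SIRPA, was called higher (1.61 ± 0.37 SE), from 23.7 ± 12.5 to 72.5 ± 19.3 normalized counts (SD, n = 3 each). Cd160, another receptor that binds TNFRSF14, had -0.42 and was not called.

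Of 27 clade B serpins 3 were listed, and the 2 beside Serpinb3a were called lower. Serpinb2, an inhibitor of plasminogen activators, fell from 46.8 ± 3.26 to 18.5 ± 8.21 normalized counts (SD, n = 3 each), with a log2 fold change of -1.33 ± 0.36 (SE). Without Ehmt2GKO 4 or Ehmt2GKO 5 the call of Serpinb2 was lost, at adjusted p = 0.0112 and 0.0179 in edgeR. Serpinb8 fell from 34.6 ± 11.3 to 8.66 ± 3.09 (SD, n = 3 each), with -1.98 ± 0.44 (SE). Of 25 proteases of the kind these serpins inhibit, 0 were listed. Over these 5 lists, leaving the 4 genes out, 3 of 16 tested genes (18.8%) were called higher and 4 (25.0%) lower, beside 18.7% and 16.9% of all tested genes. Over all lists, those of other cell types and cytokine families included, 8 of 46 (17.4%) were called in each direction. Il12b and Ccl2 passed the filter only through their Ehmt2GKO libraries, and Vcam1 and Serpinb8 only through their control libraries. These genes are among the calls, and the shares of all tested genes are not like shares for them.

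**Figure D3:**
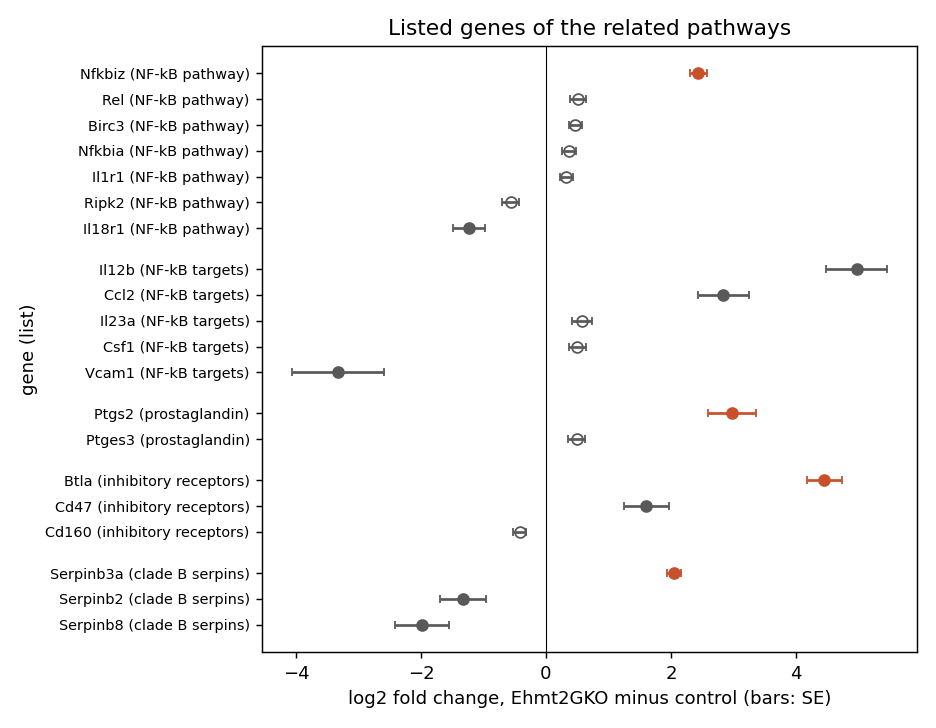
Log2 fold change with its SE for the listed genes of the 5 lists closest to Nfkbiz, Ptgs2, Btla and Serpinb3a, with these 4 in orange, called genes filled and uncalled genes open. Called genes lie on both sides of 0, from Vcam1 (-3.33) to Il12b (4.97).

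Markers of other cells were read beside these values. Of 35 cumulus and granulosa markers, Runx2 (log2 fold change 0.84) and Kitl (-0.63) were listed and not called, with summed normalized counts of 365 to 479 in control and 333 to 388 in Ehmt2GKO. Of 36 immune cell markers, H2-Aa was called lower (-1.45) and Ms4a1 (-0.49) was not called, with sums of 7197 to 7453 in control and 4779 to 5688 in Ehmt2GKO. Ms4a1 averaged 7223 normalized counts in control and H2-Aa 92.2, so these sums describe Ms4a1 almost alone. Of 20 keratinocyte and squamous epithelial markers 5 were listed, with sums of 2258 to 2398 in control and 2861 to 3528 in Ehmt2GKO. Cdh1, with means of 1758 in control and 2404 in Ehmt2GKO, made up most of these sums. In that list Epcam (1.68), Dsc3 (1.43) and Perp (1.11), genes of cell adhesion, were called higher, while Cdh1 (0.45) and Trp63 (-0.47) were not called. These are 3 of 5 tested genes, beside 18.7% of all tested genes, too few to read as a trait of the list. None of the listed markers in these lists was at 0 in a library, and their part in the values of the 4 genes was not tested. The markers that were not listed were not analysed here.

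The listed genes around the 4 genes moved both ways. Near Serpinb3a, 3 of the 38 annotated genes starting within 1 Mb were listed. They were Serpinb2 at 459 kb and Serpinb8 at 538 kb, both lower, and the long noncoding RNA Gm15389 at 635 kb, called higher (1.44). The call of Gm15389 was lost without control 1 or Ehmt2GKO 3, at adjusted p = 0.0103 and 0.0128 in edgeR. Near Btla 3 of 42 were listed. Phldb2, a protein of the cell cortex, rose from 6.02 ± 5.22 to 122 ± 29.7 normalized counts (SD, n = 3 each) at 493 kb, with a log2 fold change of 4.32 ± 0.48 (SE). With 9, 0 and 9 read counts in control, Phldb2 passed the filter only through its Ehmt2GKO libraries. It lies in the class below 10 control counts, where all 146 tested genes were called higher. Plcxd2 at 706 kb was called lower (-1.07), a call lost at -0.97 with relative log expression (RLE) factors or DESeq2, at -0.98 with upper-quartile factors, at -0.99 without control 2 and at -0.94 without Ehmt2GKO 4. Slc35a5, ending 65.6 kb before Btla, had -0.34 and was not called.

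Near Nfkbiz 3 of 29 annotated genes were listed. Senp7, a SUMO protease at 209 kb, had a log2 fold change of -0.51 and was not called. Adgrg7 had 2, 0 and 0 read counts in control and 11, 7 and 11 in Ehmt2GKO, and Tmem45a had 0, 3 and 0 in control and 12, 13 and 10 in Ehmt2GKO, and neither passed the filter. Near Ptgs2 0 of 31 annotated genes were listed. Its nearest listed genes were Crb1 on the lower side, with -0.45, and AC113282.1, at 1074 kb on the other, with 3.28 ± 0.37 (SE). Within 1 Mb of each of the 4 genes, at most 1 other gene was called higher and at most 2 lower. The shares of all tested genes were 18.7% and 16.9%, and these neighbours are too few to compare. Just outside the window of Ptgs2, the AC113282 genes at 1074 to 1102 kb were all called higher, with log2 fold changes of 2.54 to 3.76.

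**Figure D4:**
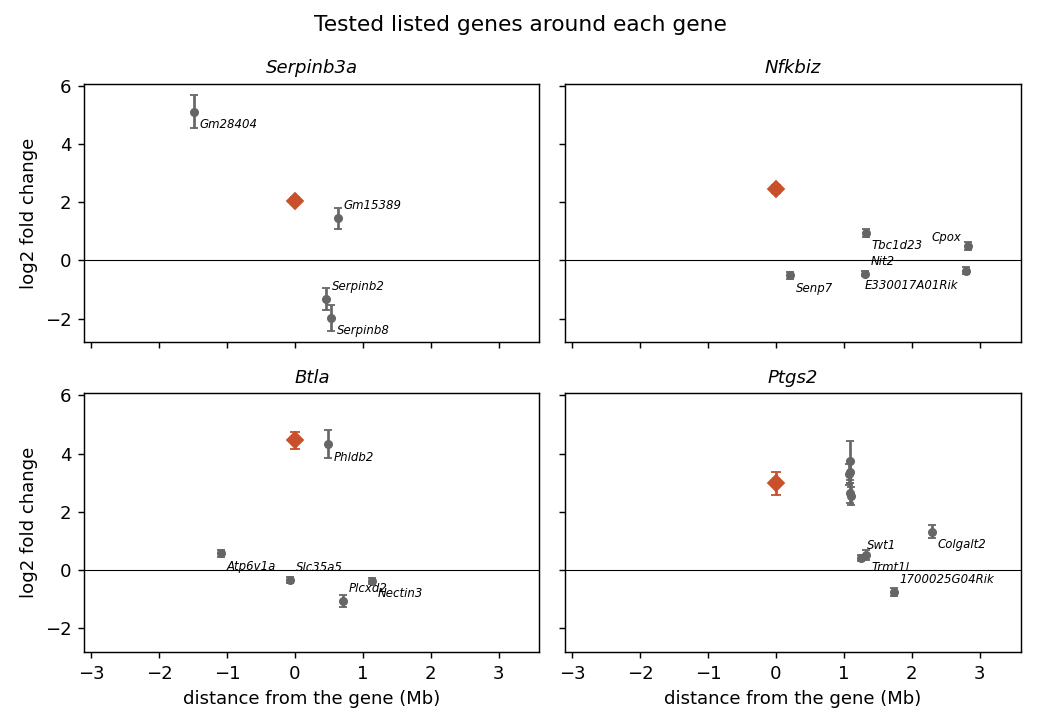
Log2 fold change with its SE for tested listed genes within 3 Mb of each gene (orange diamond at 0), against distance in Mb. Serpinb2 and Serpinb8 lie below 0 beside Serpinb3a, and a group of 5 AC113282 genes lies between 2.54 and 3.76 about 1 Mb from Ptgs2.

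The listed genes most like each of the 4 were found from profiles of log2(normalized count + 1) over the 6 libraries, each centred on its mean. Nfkbiz was nearest to the processed pseudogene AC158388.2 (root-mean-square difference 0.137), Ripply3 (0.157) and Prkcb (0.176). Serpinb3a was nearest to Ptprq (0.0812), Tmem56 (0.173) and the processed pseudogene AC164297.1 (0.194). Ptgs2 was nearest to Cyp2c67 (0.267), Casd1 (0.283) and Kcnj16 (0.301), and Btla to the long noncoding RNA AC164881.2 (0.317), Fam171b (0.381) and the processed pseudogene Gm12634 (0.397). Kcnj16 and AC164881.2 had 0, 0 and 1 read counts in control, Gm12634 had 0 in each, and Kcnj16 did not pass the filter. The added 1 weighs heavily at such counts. The fitted log2 fold changes were unlike, at 5.81 for AC164881.2 and 7.44 for Gm12634 against 4.45 for Btla. None of the 4 genes was among the nearest 3 of another. Nfkbiz and Serpinb3a differed from each other by 0.332, and Btla differed from Ptgs2 by 0.846.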

How the data were processed

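RNA of MII oocytes was amplified with a low-input polyadenylated RNA kit and sequenced by the study. The authors deposited whole-number read counts per gene, without normalization, for 3 control and 3 Ehmt2GKO libraries. Per the submitters' processing notes the tools included FastQC, HISAT2 and DESeq2 with GRCm38, and the counting program, strand setting and annotation are not given in the sources used here. The table also holds the authors' fold change, its log2, p-value, deposited adjusted p-value and direction, which were not used, except to check that all 2615 genes have a deposited adjusted p-value below 0.05. Depth is therefore known over listed genes only. The 11 bisulfite samples of the series were not analysed here.

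Counts were fitted in R 4.3.3 with edgeR 4.0.16 (quasi-likelihood F-test, TMM factors, a filterByExpr minimum of 10 counts, Benjamini-Hochberg adjustment over 2516 tested genes). The SE is the log2 fold change divided by the square root of F. The TMM step assumes that most genes do not change, which a table of selected genes does not meet. DESeq2 1.42.0 and limma 3.58.1 (voom) were alternatives, beside other factors, other filters and leaving out each library. The fits were tested on simulated data. Positions come from the deposited table, exons from GENCODE vM21, promoter sequences from RefSeq (GRCm38.p6), and similar transcripts from blastn 2.17.0+. Python 3.11.15 was used for the remaining steps.

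The genes named are the 4 genes, called genes of the lists and up to 5 uncalled per list, the 3 most alike by profile, and listed neighbours within 1 Mb or nearest on each side. The genes and lists were chosen with earlier results of these data known.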

Additional observations from a re-analysis of the deposited data

How the results depend on the processing

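The log2 fold changes of the 4 genes kept their sign and moved by less than 1 SD between replicates under every alternative that gave a value. When single libraries were left out, the values were 2.33 to 2.54 for Nfkbiz, 1.95 to 2.12 for Serpinb3a, 2.72 to 3.27 for Ptgs2 and 4.17 to 4.90 for Btla. The gap between the pair near silence and the expressed pair, 1.47, ranged from 1.22 to 1.87 when each library was left out, the highest without control 6. There the gap moved by more than its SD between replicates (0.376). A filter of 10 counts in every library removed Ptgs2 and Btla, so the gap had no value there. Higher listed genes with few control counts had larger folds in general, so these ranges do not make the gap a trait of the 4 genes. With that filter 297 listed genes were called higher, and 7 of the lists' genes. With no fold threshold 1240 genes were higher and 1246 lower at an adjusted p below 0.01. Among the other 62 named genes with a fit, 0 of 796 alternative values reversed and 20 moved by more than 1 SD between replicates. The factors of DESeq2 shifted the median log2 fold change by 0.094. No paired analysis was possible because no replicate number occurs in both groups. With 3 libraries in each group and 30 and 44 control reads, the folds of Ptgs2 and Btla are the least precise, and genes that did not differ were not listed, so no share of a pathway that stayed level can be read from these counts.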

Other observations

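Chemokine and interleukin genes were also listed, some of them counted above as NF-kB pathway or target genes. Of 61 chemokines and their receptors 4 were listed and 3 were called higher by the quasi-likelihood test of edgeR, beside 18.7% of all tested genes, in a table of genes already selected for a difference. Without Ccl2, counted above, these were 2 of 3. Cxcl15 had a control mean of 3.34 normalized counts, in the class below 10 where all 146 tested genes were called higher. Ccl2 also passed the filter only through its Ehmt2GKO libraries, so 18.7% is not a like share for Cxcl15 and Ccl2. Ccl11, a chemokine for eosinophils, rose from 178 ± 32.6 to 528 ± 41.0 normalized counts (SD, n = 3 each), with a log2 fold change of 1.57 ± 0.16 (SE). Cxcl15 had 3, 3 and 4 read counts in control and 14, 15 and 21 in Ehmt2GKO (2.27 ± 0.53), and Ccl2 is given above. Ccr3, the receptor of Ccl11, had 0.76 and was not called. Of 83 interleukins and their receptors 11 were listed and 9 tested. Il12b was called higher, Il33 (-1.91 ± 0.42 SE) and Il18r1 were called lower, and 6 were not called. Of the 5 tested interleukin genes not counted above, Il33 was the gene called. Il3 had 1, 2 and 0 read counts in control and 24, 8 and 21 in Ehmt2GKO, and Il6ra had 3, 9 and 13 in control and 0 in each Ehmt2GKO library, and neither passed the filter.

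Tnfrsf21, a death receptor, was called lower (-1.42 ± 0.37 SE), a call lost without control 1, Ehmt2GKO 3 or Ehmt2GKO 5, at adjusted p = 0.0212, 0.0101 and 0.0128 in edgeR. Tnfsf11, the ligand RANKL, had 0.77 and was not called. Ifitm3, the listed gene of the interferon list of 47, had -0.98 and was not called. Among oocyte markers Zp3, a protein of the zona pellucida, was called lower, from 6962 ± 150 to 3358 ± 173 normalized counts (SD, n = 3 each), a log2 fold change of -1.05 ± 0.10 (SE). That call was lost with the RLE factors or DESeq2 (-0.96 each) and with upper-quartile factors (-0.97), where the value was inside the threshold of 1.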
